A study of Rattus norvegicus with 120 samples.

Results

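The eyes of 28 rats with a low level of Cbr1 messenger RNA were set against those of 27 rats with a high level, out of 120 animals in the series, and 65 animals lay between them. Each animal was a 12-week-old male of the F2 generation of a cross of the inbred rat strains SHRSP and SR/JrHsd, so it carried a mixture of the chromosomes of both strains. The labels named no treatment and no genotype, and the low, middle and high animals shared the cross, the sex, the age and the tissue. RNA of the whole eyes of an animal was measured on 1 Affymetrix array, without repeats, and the values are log2 levels. The titles also held an S code (10 codes) and an L code (22 codes) that the labels did not explain, and the dates in some titles went with the S code.

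Cbr1 is carbonyl reductase 1, a cytosolic enzyme that uses NADPH to reduce the carbonyl groups of quinones, of aldehydes made by lipid oxidation and of prostaglandins, among them prostaglandin E2, which it converts to prostaglandin F2 alpha. Cbr3 is its close relative, encoded nearby on the same chromosome. In an intercross, animals inherit long blocks of a chromosome from a strain, so genes near each other are inherited together more often than genes far apart, and an F2 animal can carry 0, 1 or 2 copies of a strain's block. No genotypes were used here.

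The low and high animals were chosen by their measured Cbr1 level, which also made the classes. The mean of each S code was subtracted from the Cbr1 probe set, the overall mean was added back, and animals under 7.37 were called low, those over 8.3 high and the rest middle. The Cbr1 values therefore describe the classes and are no result. Low animals had lowest, median and highest Cbr1 levels of 6.17, 6.69 and 7.08 (mean 6.70 ± 0.24, SD, n = 28). Middle animals had 7.59, 8.04 and 8.29 (mean 8.02 ± 0.19, n = 65), and high animals had 8.30, 8.61 and 8.98 (mean 8.60 ± 0.22, n = 27). The low class stood apart, with its highest animal at 7.08 and the nearest middle animal at 7.59. The limit between middle and high cut through a continuous range, with the nearest animals at 8.301 inside the high class and 8.294 outside it. The array had 1 probe set for Cbr1, so no other Cbr1 measurement could be set beside it. Without the removal of S code means, 110 of the 120 animals fell in the same class.

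The classes were spread over the labels. Low animals came from 16 of the 22 L codes, middle animals from 20 and high animals from 17, and each of the 10 S codes held animals of all 3 classes. S code 8 was uneven, with 5 low, 1 middle and 6 high animals. All 3 arrays that had been scanned again were those of low animals. The arrays of animal 63, which was low and among those scanned again, and animal 15, which was middle, were taken as unlike the rest. No measure of that likeness is given here. The calls and the lists were also computed without the arrays scanned again and without those of animals 63 and 15.

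The start regions of Cbr1, of its neighbour Cbr3 and of Krtap14l, the gene with the largest low minus high difference, are shown. They surround the annotated starts of these genes. For Krtap14l the annotated start falls on an ATG, so it may be the start of the coding sequence rather than of transcription. Each runs 5′ to 3′ on the gene's own strand, from 250 bases before the annotated start to 50 after it, and comes from RefSeq on the GRCr8 build, at chr11:46346155-46346454 (plus strand) for Cbr1, chr11:46478045-46478344 (plus strand) for Cbr3 and chr11:41572683-41572982 (minus strand) for Krtap14l. The GRCr8 genome is that of another rat strain than the parents of this cross, and no sequence of the parents was used here. Capitals mark the matches to 3 short motifs searched on both strands.
Cbr1: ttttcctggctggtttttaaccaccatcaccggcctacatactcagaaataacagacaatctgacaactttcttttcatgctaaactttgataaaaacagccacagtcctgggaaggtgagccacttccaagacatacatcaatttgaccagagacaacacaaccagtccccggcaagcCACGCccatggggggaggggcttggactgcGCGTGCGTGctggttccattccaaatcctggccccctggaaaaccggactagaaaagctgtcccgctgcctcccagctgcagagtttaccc
Cbr3: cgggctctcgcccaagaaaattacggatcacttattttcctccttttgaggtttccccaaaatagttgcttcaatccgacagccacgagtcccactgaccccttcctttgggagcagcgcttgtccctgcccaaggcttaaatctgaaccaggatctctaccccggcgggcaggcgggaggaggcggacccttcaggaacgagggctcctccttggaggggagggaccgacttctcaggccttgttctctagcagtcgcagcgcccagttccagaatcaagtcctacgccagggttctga
Krtap14l: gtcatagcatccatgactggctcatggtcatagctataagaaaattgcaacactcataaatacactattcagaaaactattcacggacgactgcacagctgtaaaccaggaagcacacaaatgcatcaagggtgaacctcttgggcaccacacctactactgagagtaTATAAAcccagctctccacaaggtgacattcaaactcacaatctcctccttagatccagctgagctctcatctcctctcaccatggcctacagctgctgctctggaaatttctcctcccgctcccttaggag
The motifs were GCGTG, the core that the aryl hydrocarbon receptor binds, TGACNNNGC, the core of the antioxidant response element that NRF2 binds, and TATAAA, the TATA box. GCGTG was found in the Cbr1 region at bases -41 and -37 from the start, where the matches share a base, and as CACGC, on the opposite strand, at -71. TATAAA was found in the Krtap14l region at -82, counted from its annotated start, the ATG. Neither GCGTG nor TATAAA was in the Cbr3 region, and TGACNNNGC was in none of the 3. Over 33469 start regions of the same length, 29.7% held GCGTG, 12.1% held TGACNNNGC and 14.2% held TATAAA.

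Few transcripts went with the Cbr1 class. Of 23325 probe sets tested, 45 (0.193%) differed between low and high animals by limma with Benjamini-Hochberg adjustment (adjusted p under 0.05). Of these, 23 (0.0986%) were lower in low animals and 22 (0.0943%) were higher. At an unadjusted p under 0.05 there were 942 (4.04%). The 45 probe sets included 35 that name 1 gene each and together stand for 29 of 12325 genes (0.235%), of which 16 were lower in low animals, 12 were higher and 1, Gart, was called in both directions by different probe sets. A further probe set names several genes and 9 name none. Only 5 of the 45 differed by 2-fold or more, and all 5 were lower in low animals. The ranges of the low and the high animals overlapped for every one of the 23325. Without the 3 arrays scanned again, all of them from low animals, there were 47 calls, 40 of them among the 45, and Grik1, Tmem50b, Inmt, Pinlyp and 1 of 3 called Ifnar1 probe sets lost their calls. In whole-eye RNA, fewer cells of a type and less RNA per cell cannot be told apart, and an array cannot tell a lower level from weaker binding of a probe to one strain's transcript.

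Krtap14l, a keratin-associated protein gene of a family known from hair, had the largest difference. It was named beside Cbr1 when the classes were chosen, so its value is a description. Its lowest, median and highest levels were 4.18, 5.15 and 6.81 in low animals, 4.94, 6.49 and 7.65 in middle animals and 6.78, 7.24 and 8.26 in high animals. All but 1 of the 28 low animals lay below the whole high range. Low minus high was -2.26 on the log2 scale (SE 0.15), a level 4.79-fold lower. A probe set which names both Krtap13-2 and Krtap14l, was 3.49-fold lower in low animals (-1.80 log2, SE 0.13). LOC100363236, which stands 2 genes from Krtap14l in the gene order and has no role given here, had levels of 4.06, 4.59 and 5.05 in low animals, 4.37, 5.07 and 6.12 in middle animals and 5.04, 5.60 and 6.24 in high animals. Its difference of -1.07 (SE 0.09, limma adjusted p = 1.61e-17) came from levels close to the limit of 4.283 under which probe sets were not tested.

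**Figure D1:**
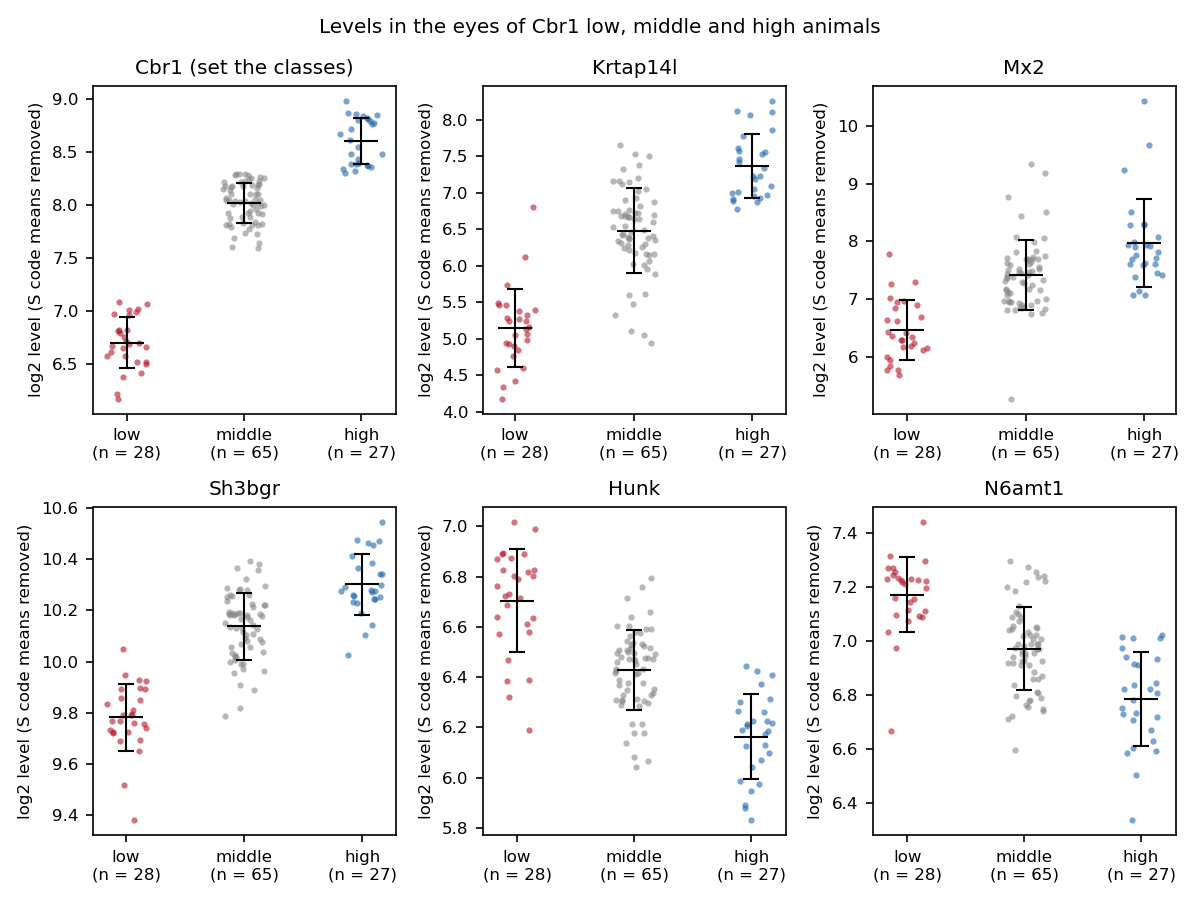
Log2 levels in the eyes of single animals (points, S code means removed) by Cbr1 class, low (red), middle (grey) and high (blue), with the class mean and 1 SD as bars. Cbr1 set the classes, and for Krtap14l, Mx2 and Sh3bgr low animals are lowest while for Hunk and N6amt1 they are highest, with the middle class between in all 5.

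Mx2, an interferon-induced GTPase that restricts viruses, was the second largest named difference. It stood at 5.70, 6.36 and 7.79 in low animals, 5.29, 7.39 and 9.34 in middle animals and 7.07, 7.83 and 10.43 in high animals (lowest, median and highest). Of the low animals, 25 of 28 lay below every high animal. The difference was -1.54 (SE 0.17, limma adjusted p = 1.52e-11), or 2.91-fold lower. Mx1, the related GTPase 2 genes away, did not pass (+0.06, SE 0.23, adjusted p = 1.0).

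Other genes lower in low animals included Sh3bgr, Ripply3 and Runx1. Sh3bgr, which encodes an SH3-binding glutamic acid-rich protein of heart and skeletal muscle, stood at 9.38, 9.78 and 10.05 in low animals, 9.79, 10.16 and 10.40 in middle animals and 10.03, 10.28 and 10.54 in high animals. Its difference was small (-0.53, SE 0.04) but its spread was smaller still, so that 27 of 28 low animals lay below the high range (limma adjusted p = 6.95e-25). Ripply3, a transcriptional corepressor needed for pharyngeal development in mice, differed by -0.56 (SE 0.05, adjusted p = 5.93e-16), between class medians of 4.31 in low and 4.85 in high animals, near the lower limit of testing. Runx1, a transcription factor of blood formation, differed by -0.47 (SE 0.08, adjusted p = 1.67e-05), with medians of 5.56 in low and 5.97 in high animals. The rest on chromosome 11, besides Gart, were Riox2, a ribosomal oxygenase (-0.32), Nit2, an omega-amidase (-0.28), the adhesion molecule gene Dscam (-0.25), Cbr3 (-0.24), the kainate receptor subunit gene Grik1 (-0.23), the aspartic protease gene Bace2 (-0.16), Cldnd1 (-0.15) and Tmem50b (-0.14), with limma adjusted p between 1.27e-06 and 0.0336. Dscam, with medians of 4.39 in low and 4.66 in high animals, was near the lower limit of testing. Without the arrays scanned again, Grik1 (-0.20, adjusted p = 0.108) and Tmem50b (-0.11, adjusted p = 0.0813) did not pass. Of the 9 probe sets without a gene name, the one of largest difference was also lower in low animals (-1.23, SE 0.12).

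Genes higher in low animals differed by less than 2-fold. Hunk, a protein kinase of the AMPK-related family, stood at 6.19, 6.75 and 7.02 in low animals, 6.04, 6.46 and 6.80 in middle animals and 5.83, 6.19 and 6.45 in high animals. The difference was 0.55 (SE 0.05, limma adjusted p = 6.95e-17), and 24 of 28 low animals lay above the high range. N6amt1, a methyltransferase that modifies the translation release factor eRF1, stood at 6.67, 7.21 and 7.44 in low animals, 6.60, 6.97 and 7.30 in middle animals and 6.33, 6.80 and 7.02 in high animals (difference 0.39, SE 0.04, adjusted p = 1.52e-11). Of the 28 low animals, 26 lay above the high range and the other two inside it. Erg, an ETS transcription factor of endothelium, was higher by 0.56 (SE 0.08, adjusted p = 4.2e-07), with medians of 5.82 in low and 5.29 in high animals. Tiam1, an exchange factor that activates the GTPase Rac, was higher by 0.55 (SE 0.09, limma adjusted p = 7.65e-06). Its medians were 4.92 in low and 4.28 in high animals, near the lower limit of testing. Adamts5, a protease that cuts the proteoglycan aggrecan, was higher by 0.47 (SE 0.08, adjusted p = 9.38e-05). C2cd2 (0.29), the type I interferon receptor subunit gene Ifnar1 (0.24), the splicing cofactor gene Son (0.24), the ribosome biogenesis gene Urb1 (0.20), the interleukin receptor subunit gene Il10rb (0.14), the nucleosome-binding protein gene Hmgn1 (0.12) and the proteasome assembly chaperone gene Psmg1 (0.11) made up the rest, with adjusted p between 8.35e-07 and 0.046.

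The genes that differed were gathered on the chromosome of Cbr1. Of 462 probe sets tested on chromosome 11, 33 (7.14%) were called, against 2 of 16682 (0.012%) on all other chromosomes and 10 of 6181 (0.162%) with no chromosome given. In the order of the 614 protein-coding genes of chromosome 11, Cbr1 has 153 before it and 460 after it. The 27 called genes ran from Adamts5, 95 genes before Cbr1, to Nit2, 92 genes after it, with 14 before Cbr1 and 13 after it. Of these, 14 were lower and 12 higher in low animals, with Gart called in both directions, and lower and higher genes lay side by side. Within the stretch, 56 of 83 genes tested were not called. Beyond it, none of the 20 genes tested more than 100 genes before Cbr1 was called, nor any of the 53 that lie between 100 and 200 genes after it or the 159 farther on. Gene order came from the GRCr8 gene table, which was used for names and order.

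**Figure D2:**
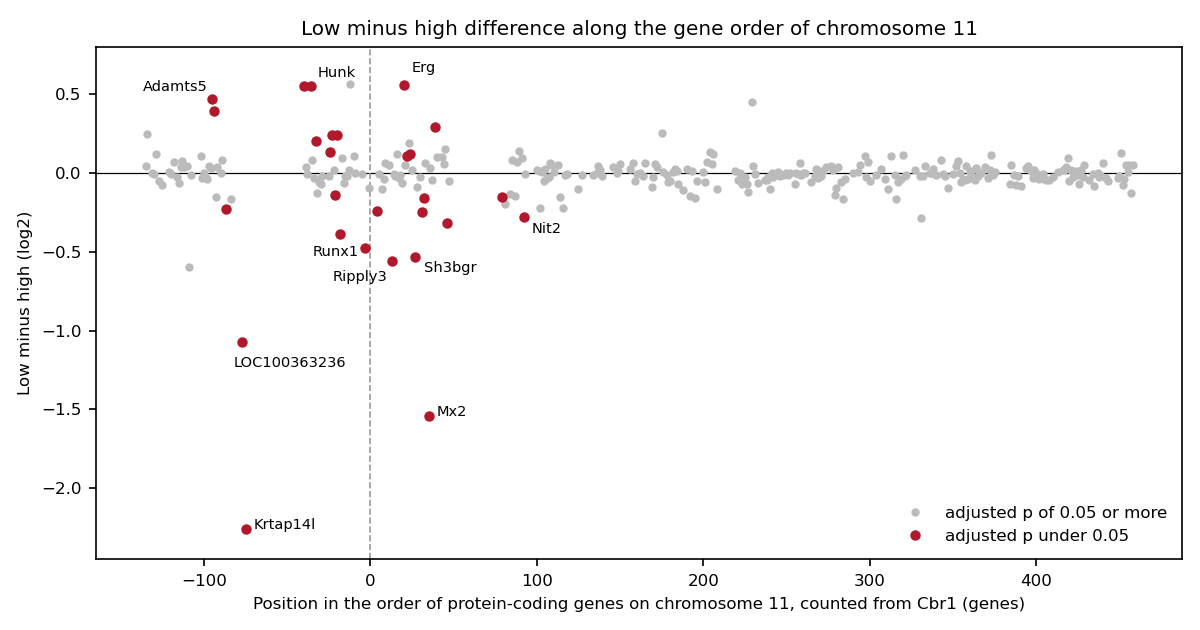
Low minus high difference (log2) of each gene tested on chromosome 11 by its place in the gene order, counted in protein-coding genes from Cbr1 (dashed line). Red points had a limma adjusted p under 0.05, and the 27 of them lie between Adamts5, 95 genes before Cbr1, and Nit2, 92 genes after it, on both sides of 0.

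Most of the nearest neighbours of Cbr1 did not pass. Among the 10 measured genes on each side of Cbr1, 3 of 20 were called, namely Runx1 3 genes before, Cbr3 4 genes after and Ripply3 13 genes after. Over all genes tested 0.235% were called, and in the stretch from Adamts5 to Nit2 it was 27 of 83. Setd4, a methyltransferase gene next to Cbr1, differed by -0.09 (SE 0.04, limma adjusted p = 0.971). Slc5a3, an inositol transporter gene 12 genes before Cbr1, had the largest difference of these 20 (0.57, SE 0.22, adjusted p = 0.944), and its levels spread widely, from 4.70 to 7.81 in low animals and 4.44 to 7.72 in high animals. With 5 principal components in the fit, 3 more of the 20 passed, Slc5a3 (0.90, adjusted p = 2.16e-15), Vps26c (0.14, adjusted p = 0.001) and Morc3 (-0.10, adjusted p = 0.0484). Vps26c, a subunit of an endosomal sorting complex 16 genes after Cbr1, did not pass (0.12, adjusted p = 0.54) but did without the arrays scanned again (0.16, adjusted p = 0.00375). Pdia5, a disulfide isomerase gene 229 genes after Cbr1 on the same chromosome, stood at 4.80, 6.03 and 6.51 in low animals and 4.76, 5.49 and 6.32 in high animals, and its difference of 0.45 (SE 0.11) fell just short (adjusted p = 0.056). It passed in 7 of the 23 alternative settings that tested it, among them that without the arrays of animals 63 and 15 (0.47, adjusted p = 0.0473), but not without the arrays scanned again (0.46, adjusted p = 0.0702), with principal components (0.41, adjusted p = 0.105) or without S code 2 (0.41, adjusted p = 0.412).

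Only 2 called genes with a position lay on other chromosomes, and their differences were small. Inmt, an enzyme gene on chromosome 4 whose product methylates indole amines, was at a median of 9.29 in low and 9.49 in high animals (-0.20, SE 0.05, limma adjusted p = 0.0358). Pinlyp, a phospholipase inhibitor gene on chromosome 1, was at a median of 9.43 in low and 9.55 in high animals (-0.15, SE 0.04, adjusted p = 0.0242). Each was called in 11 of the 24 alternative settings, and neither passed without the arrays scanned again (adjusted p = 0.115 for Inmt and 0.0815 for Pinlyp).

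Of the 29 called genes, 11 had more than 1 probe set tested. For 8 of these, all probe sets had the same sign, and for 2 of the 11, Gart and Hunk, all were called. Whether the probe sets of a gene differ from each other was not tested. Gart, the trifunctional enzyme of purine synthesis, was called in opposite directions: 1 probe set was at medians of 7.22 in low and 7.58 in high animals (-0.39, SE 0.04, limma adjusted p = 2.88e-16), the other at medians of 7.15 in low and 6.95 in high animals (0.19, SE 0.04, adjusted p = 0.000325). A gene-level reading of Gart therefore has no direction here. Hunk was higher in low animals by both of its probe sets (0.55 and 0.18), and C2cd2 by 2 of 3 (0.29 each). Ifnar1 was called by 3 of 6 probe sets (0.32, 0.24 and 0.24) and Son by 2 of 5 (0.26 and 0.24), while the other probe sets of these genes were not called. Those of Son were of both signs, at -0.18 (SE 0.14), -0.04 (SE 0.04) and 0.03 (SE 0.03), the last with the highest mean level, 10.48. The uncalled sets of Ifnar1 included the one of largest difference (0.38, SE 0.10, adjusted p = 0.152), and each of its 3 called sets lost its call in 1 or more alternative settings, and 1 of them was called in 9 of 24. Adamts5, Erg, Runx1, Tiam1, Bace2 and Riox2 rested on 1 called probe set each. The second set of Adamts5 differed by 0.04 (SE 0.05) and that of Erg by 0.02 (SE 0.05). The called set of Tiam1 had the lowest mean level of its sets, 4.58. The others, at mean levels of 5.38 and 7.79, differed by 0.04 (SE 0.04) and 0.08 (SE 0.04). Whether the strains' sequences differ under any of these probes was not tested.

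**Figure D3:**
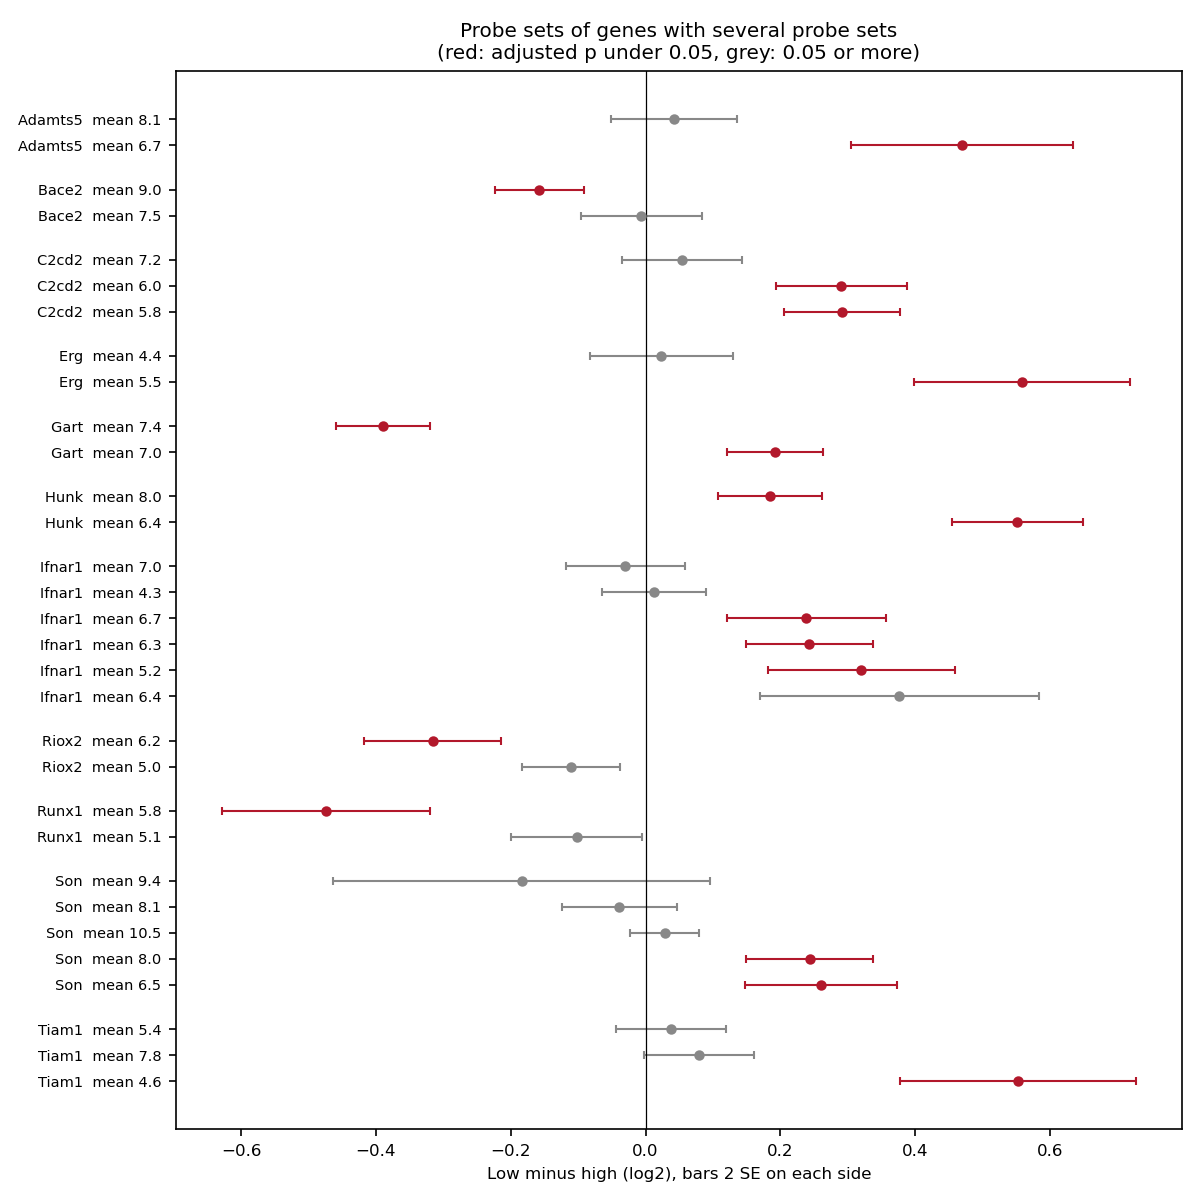
Low minus high difference (log2, bars 2 SE on each side) of every probe set of the 11 called genes that have several, with its mean level; red had a limma adjusted p under 0.05. The Gart probe sets lie on opposite sides of 0, and most of the other genes have red and grey probe sets side by side.

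Among the enzymes related to Cbr1, its neighbour Cbr3 passed. Of 24 carbonyl, aldo-keto and related reductase genes tested, 1 was lower in low animals, Cbr3, and none was higher, with a median difference of -0.0065 over the list against -0.005 over all probe sets tested. Over all genes tested 0.235% were called, and Cbr3 lies in the stretch of chromosome 11 that holds 27 called genes. The count is therefore not read as a result about these enzymes. Cbr3, which in humans reduces a narrower range of carbonyl compounds than its relative, stood at 5.82, 6.34 and 7.001 in low animals, 6.13, 6.50 and 6.88 in middle animals and 6.42, 6.62 and 6.91 in high animals (lowest, median and highest). The ranges overlapped, and the difference was -0.24 (SE 0.05, limma adjusted p = 0.00253), or 1.18-fold lower. Without S code 2 it did not pass (-0.20, adjusted p = 0.0599), and without the arrays scanned again it did (-0.21, adjusted p = 0.013). Genes named as Cbr1-like lie between Cbr1 and Cbr3 in the gene table, and what each probe set binds among them is uncertain. Akr1c15, an aldo-keto reductase gene on chromosome 17, had the next smallest p (0.18, SE 0.05, adjusted p = 0.144).

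The other 5 process lists gave 1 call, Mx2. Over all genes tested 0.235% were called, so a list of this size with no call says nothing particular of its process. None of 20 prostaglandin synthesis, breakdown and receptor genes passed, with a median difference of -0.0034. The smallest p were those of the transporter gene Abcc4 (-0.11, limma adjusted p = 1.0) and the reductase gene Ptgr1 (-0.05, adjusted p = 1.0). None of 24 NRF2 target and glutathione genes passed, the nearest being the pentose phosphate enzymes Pgd (-0.12, adjusted p = 0.614) and Tkt (-0.10, adjusted p = 0.736). Of 13 interferon-response genes, only Mx2 passed. The next, Rsad2, an antiviral enzyme gene, differed by -0.16 (SE 0.11, adjusted p = 1.0), and 11 of the 13 were below 0. None of 16 clock genes and none of 14 endoplasmic reticulum disulfide isomerase genes passed, while with animals 63 and 15 left out 1 of the 14 did, Pdia5. At an unadjusted p under 0.05 there were 6 of the 24 reductase genes, 5 of the 24 NRF2 genes, 2 of the 14 isomerase genes, 1 of the 13 interferon genes and 0 of the prostaglandin and clock genes, against 4.04% of all probe sets tested.

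No cell type marker passed the test between low and high animals. The tissue label held, as rod genes averaged 11.65 in low and 11.67 in high animals (medians over animals) and lens genes 12.96 in both. None of the 141 marker genes tested in 12 lists passed, where 0.235% of all genes did, so the count says nothing particular of the markers, and the medians of the lists lay between -0.07 and 0.06. The rod list was the lowest, with 14 of 15 genes below 0 and 8 at an unadjusted p under 0.05 (4.04% of all probe sets tested), led by the channel gene Cngb1 (-0.13, limma adjusted p = 0.503). The mean level of the rod list ran from 11.33 to 11.88 in low animals, 11.44 to 11.85 in middle animals and 11.54 to 11.82 in high animals. All 18 skeletal muscle genes were above 0, with 1 at an unadjusted p under 0.05 (Casq1, 0.21), and the mean of that list ran from 9.86 to 10.59 in low animals, 9.97 to 10.62 in middle animals and 9.71 to 10.43 in high animals. Without the arrays scanned again, 13 of 15 rod genes were below 0 and the 18 muscle genes still above it. The genes of each list, here and in the process lists, were measured in the same animals, so these counts are not of independent genes. The part of these small shifts in the calls was not tested.

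**Figure D4:**
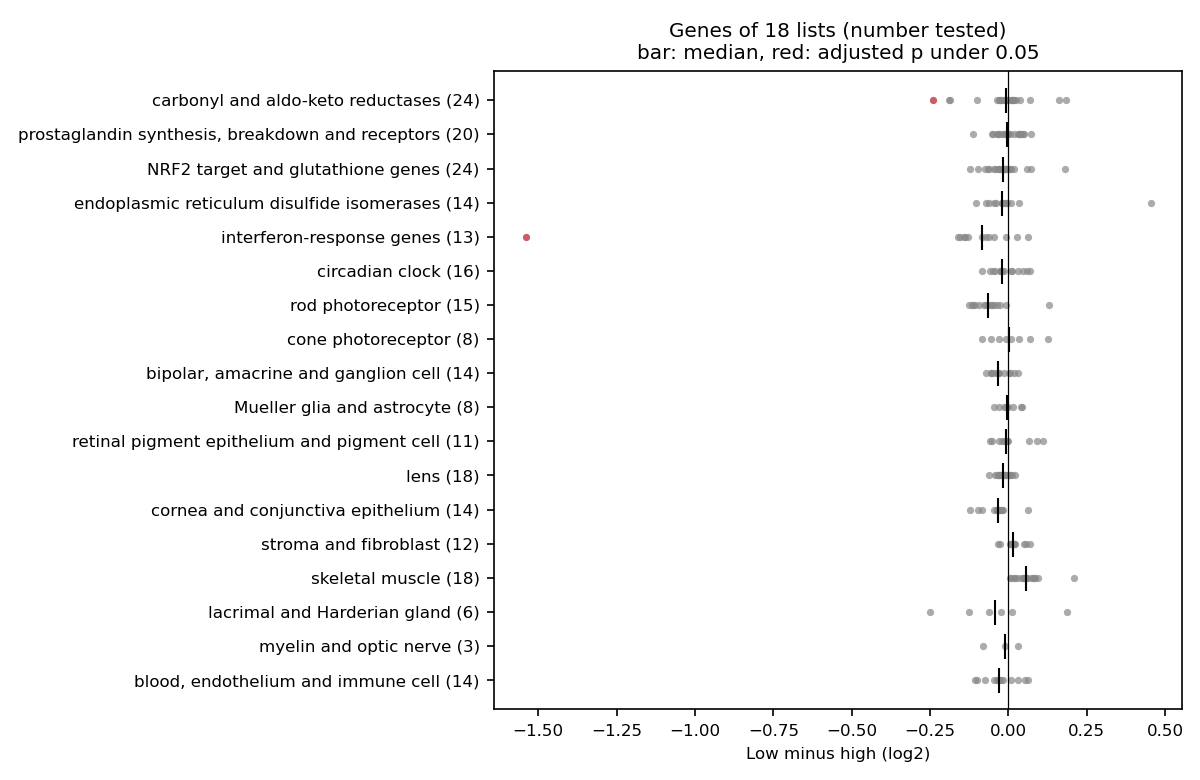
Low minus high difference (log2) of every tested gene (points) in 6 process lists and 12 cell type lists, with the list median as a bar; red points had a limma adjusted p under 0.05. Cbr3 among the reductases and Mx2 among the interferon genes are the 2 red points, and the medians lie between -0.08 and 0.06.

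RNA integrity differed between the classes by less than its spread over animals. The difference between 3′ and 5′ probe sets of the actin control, which grows as RNA breaks down, averaged 1.19 ± 0.14 in low animals and 1.19 ± 0.12 in high animals (SD, n = 28 and 27, two-sided permutation p = 0.869). That of GAPDH averaged 0.18 ± 0.12 in low animals and 0.19 ± 0.09 in high animals (permutation p = 0.866), and both p-values were 0.869 after Benjamini-Hochberg adjustment over the 2.

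The middle class lay between the others. For all 45 called probe sets its mean was between those of the low and the high animals. The classes were cut on Cbr1, with Cbr1 means of 6.70, 8.02 and 8.60 in low, middle and high animals. A probe set that follows Cbr1 must mostly lie between and lean towards the high animals. For the called probe sets both are therefore a description. Against the midpoint of low and high, no probe set passed in limma, with 315 of 23325 (1.35%) at an unadjusted p under 0.05, of which 4 were among the 45. Sh3bgr had the smallest p of those 4, its middle class lying 0.12 above the midpoint, towards the high animals (unadjusted p = 1.39e-05). Krtap14l (0.27, p = 0.0128) and Dscam (0.09, p = 0.0184) leaned the same way. Mx2 was at 0.23 (p = 0.0677) and LOC100363236 at 0.01 (p = 0.867).

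For 29 of the 45 called probe sets, low animals were on the same side of high animals in all 10 S codes, for 14 they were on the other side in 1 code, and for Dscam and Urb1 in 2. The 45 were called over the same animals, so most must keep their side, and the signs within codes are a description. Krtap14l differed by between -3.05 and -1.85 within the codes and Mx2 by between -2.96 and -1.11. For Sh3bgr the within-code values lay between -0.80 and -0.34 and for Hunk between 0.18 and 0.87. The codes held 1 to 5 low and 1 to 6 high animals each, so a within-code value can rest on 1 animal. The titles of 5 S codes held a date and those of the other 5 did not. All 45 had the same sign in both, and no probe set passed a test of the difference between them (limma, 1091 of 23325, 4.68%, at an unadjusted p under 0.05, of which 5 were among the 45). Cbr3 was among the 5, at -0.36 in dated and -0.14 in undated codes (unadjusted p = 0.0306), as was Bace2, at -0.25 in dated and -0.07 in undated codes (unadjusted p = 0.00643).

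**Figure D5:**
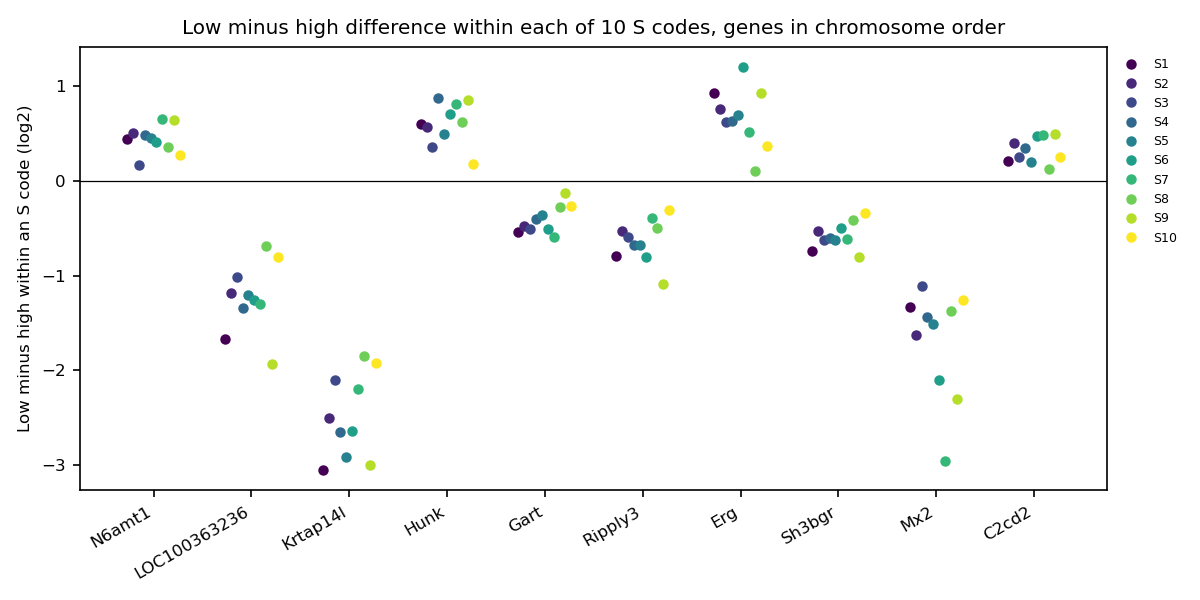
Low minus high difference (log2) within each of the 10 S codes (coloured points) for the 10 genes most like Cbr1, in chromosome order. Every gene keeps its sign in all 10 codes, and Krtap14l lies between -3.05 and -1.85. The genes were picked for likeness to Cbr1 over the same animals, so the shared sign is a description and no separate test.

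The genes most like Cbr1 over the 120 animals, by the size of Pearson r with the Cbr1 level after removal of S code means, were Sh3bgr, Krtap14l, LOC100363236, Hunk, Gart, Ripply3, N6amt1, Mx2, C2cd2 and Erg, in this order, and all 10 lie on chromosome 11. Since the animals fall into classes, r is given within each. These values are descriptions with no test, because the genes were picked for their likeness to Cbr1 over the same animals and the classes were cut on the Cbr1 level. In the 27 high animals, N6amt1 gave r = -0.66 and rho = -0.69, Gart, by its probe set that is lower in low animals, r = 0.61 and rho = 0.68, and Krtap14l r = 0.60 and rho = 0.56. In the 28 low animals, the largest r were those of C2cd2 (r = -0.49, rho = -0.45), Erg (r = -0.47, rho = -0.42) and Hunk (r = -0.45, rho = -0.40). In high animals C2cd2, Erg and Hunk gave r = -0.21, -0.31 and -0.56. Krtap14l gave r = 0.17 and rho = 0.25 in low animals. Sh3bgr gave r = 0.02 and rho = 0.01 in low animals, r = 0.52 and rho = 0.55 in the 65 middle animals and r = 0.56 and rho = 0.45 in high animals. Whether the relations differ between classes was not tested.

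The same 10 genes can be followed animal by animal, again as a description, since genes picked for likeness to Cbr1 must mostly follow its classes. For each gene, an animal was counted when its level was nearer to the median of the other class. Of the 55 low and high animals, 29 were so for none of the 10 genes, 13 for 1 gene and 13 for 2 or 3 genes. By gene, this was so for 8 of 55 animals with Erg and C2cd2, for 5 with N6amt1, Ripply3 and Mx2, for 4 with Hunk, for 2 with LOC100363236, Gart and Sh3bgr and for 1 with Krtap14l.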

How the data were processed

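Whole-eye RNA of 120 rats was measured on 1 Affymetrix array per animal. The authors deposited log2 values made by RMA, per the submitters' processing notes (no version given), which corrects background, evens out the arrays and gives a value per probe set, so that a shift common to most genes may be lost. Array medians lay between 5.78 and 5.96. Precision is limited by how many arrays there are.

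Of 31099 probe sets, 57 controls were left out. By the platform annotation, 20826 had 1 symbol, 436 several and 9780 none, and 20758 of the first were found by Entrez number in the RefSeq GRCr8 table. The 23325 with a mean of at least 4.283, the 25th percentile of all values, were tested, without Cbr1. limma 3.58.1 (R 4.3.3; lmFit, eBayes with trend) fitted the 3 classes of all 120 animals with the S code as a factor, and low minus high was tested with Benjamini-Hochberg adjustment at 0.05. Per gene, the probe set of lowest p stood for called genes and that of highest mean otherwise. Permutations (100000, two-sided) used SciPy 1.17.1 and NumPy 2.4.6 in Python 3.11.15. The fit was also run on simulated normal values drawn separately for each probe set, which does not test the calls made here.

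Named were Cbr1, Krtap14l, the 25 called genes of largest difference, the 10 measured genes on each side of Cbr1, the 10 most like it, and the called members of the 6 process lists or the 2 of smallest p. Genes called on smaller differences, C11h21orf91, Upk1b, Mx1, Casq1 and Cngb1 were named after their values were seen. The classes, genes and 18 lists were chosen with earlier results of these data known. Of 289 list members, 252 were tested, 10 lay under the limit, 26 lacked their own probe set and 1 was Cbr1. Alternatives were other covariates, filters, class limits and array sets, and each S code left out.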

Additional observations from a re-analysis of the deposited data

How the results depend on the processing

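Over 24 alternative settings the count of 45 called probe sets lay between 31 and 82, and all calls tested in a setting kept their sign. With 5 principal components in the fit the count was 82, 42 lower and 40 higher in low animals, with all 45 among them and 13 on other chromosomes. Without the S code it was 31, and 13 were higher in low animals. Other settings gave 33 to 61, and leaving out each S code in turn 34 to 43. Of the 45, 27 were called in every setting that tested them, among them Krtap14l (-2.44 to -2.05), Mx2 (-1.69 to -1.32), Sh3bgr (-0.59 to -0.50), 1 of 2 Hunk probe sets and both Gart probe sets, and 18 were not. Cbr3 lost its call without S code 2. Il10rb was called in 19 of 24 settings, Tmem50b in 16 and Urb1 in 14, and Grik1, Psmg1, Inmt and Pinlyp were called in 11 of 24 settings each. The cause was not tested. No gene with a call reversed. Genes near Cbr1 whose difference was near 0 and not called changed sign: Smim11 to 0.013 with the L code, 0.014 without the arrays scanned again, 0.007 without animals 63 and 15, 0.001 with array medians subtracted, 0.004 with low and high animals only and 0.003 with narrower limits; Rcan1, in the order of the first 5, to 0.023, 0.029, 0.025, 0.000 and 0.001, and 0.036 with principal components; Pigp to 0.003 with principal components, 0.011 without the arrays scanned again and 0.010 without animals 63 and 15; Ttc3 to 0.002 without the arrays scanned again; Mrps6 to -0.007 without the S code; Dop1b to 0.004 with wider limits and 0.027 without removal of S code means. Leaving out each S code in turn gave ranges of -0.042 to 0.007 for Itsn1, -0.007 to 0.046 for Mrps6, -0.019 to 0.007 for Smim11, -0.022 to 0.026 for Rcan1, -0.021 to 0.007 for Dop1b, -0.021 to 0.008 for Pigp and -0.048 to 0.000 for Ttc3. No paired analysis was possible because the labels match no animals between the classes; the S code was in the main fit as a block. The number of arrays and the class sizes limit small differences, and levels near the lower limit of testing have little signal over background.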
